A study of Rattus norvegicus with 12 samples.

Results

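The genes of the lysosome and of autophagy, 43 in all, were followed in the renal cortex of rats with obesity-related nephropathy (ORN). They were taken by symbol from the deposited table of 13151 genes, 22 as lysosomal genes (13 enzymes, 8 membrane and lipid handling proteins and the transcription factor Tfeb) and 21 as autophagy machinery. All 43 were listed, and all 43 were among the 11633 genes tested.

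The rats were male, 32 weeks old and fell into 3 groups of 4. Zucker fatty (ZF) rats lack a working leptin receptor and become obese, and Zucker lean (ZL) rats were the control. ZF-SGLT2i rats were ZF rats given canagliflozin, an inhibitor of the sodium-glucose cotransporter SGLT2, at 10 mg/kg/day in the diet over the last 8 weeks. The ZL rats that the paper describes were in a time course with open wedge biopsies of the kidney at earlier ages. The treated rats came from ZF rats bought separately, for which no biopsy is described, and untreated ZF rats were in both studies. The part of biopsy and of purchase in the comparisons with ZL was not tested. Each library was bulk RNA of cortex, which holds tubules, glomeruli, vessels and interstitial cells together, and the receptor defect is present in every cell of both ZF groups. ZL rats given the drug were not analysed here, so the drug was measured on the obese background alone. The libraries held 8824980 to 12210257 reads on genes. Values are given as normalised read counts (CPM) in the order of the rat numbers, ZL 1, 2, 3 and 4, ZF 2, 3, 4 and 5, and ZF-SGLT2i 2, 3, 4 and 6. The number is a rat's name and does not tie rats of different groups together.

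Lysosomes are acid compartments in which cathepsins, glycosidases and lipases break down what the cell has taken up or enclosed. Proximal tubule cells depend on them to degrade filtered protein. Autophagy delivers the cell's own contents to the same place: the ULK complex starts a membrane, a lipid kinase complex marks it, a conjugation system attaches ATG8 proteins (the LC3 and GABARAP families) to it, and cargo receptors such as p62 load it. TFEB, a transcription factor held in the cytoplasm by mTORC1, is known to switch on many of these genes.

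The tissue label was held against marker genes. Lrp2, the endocytic receptor megalin of the proximal tubule, gave 11361, 10533, 10608 and 10444 in ZL, 7869, 7247, 9531 and 6695 in ZF and 7384, 6339.9, 6979 and 5057 in ZF-SGLT2i, and Slc5a2, the drug's target SGLT2, gave 365, 496, 549.9 and 292 in ZL, 370.2, 504, 519.7 and 446 in ZF and 418, 359, 424 and 403 in ZF-SGLT2i. Nphs1, the nephrin gene of podocytes, lay between 132 and 219 CPM in the 12 rats. Markers of tubule and glomerulus were thus present in every library.

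A library of ZF and one of ZL stood apart from their groups on the second principal component of all genes tested, which held 13.3% of the variance. On it, ZF rat 5 lay at 0.52, among the ZL rats (rat 1 at 0.49) and below the ZF-SGLT2i rats at 3.58 to 11.4. The other ZF rats lay between -18.3 and -10.6. ZL rat 3 lay at 16.1 and the other ZL rats between -1.67 and 4.80. On the first component, with 48.0% of the variance, ZL rats lay between -37.4 (rat 4) and -13.5 (rat 2), with rat 3 among them at -19.3, ZF rats between -0.55 and 19.9 (rat 5) and ZF-SGLT2i rats between 13.2 and 22.1. The kidney injury gene Havcr1 was also lowest in ZF rat 5 within ZF, with 1.70, 1.56, 1.70 and 1.88 in ZL, 52.3, 14.6, 32.1 and 7.32 in ZF and 21.9, 16.7, 13.4 and 2.34 in ZF-SGLT2i. Counts of members are therefore given with and without each of these rats, and those of some other lists without ZF rat 5.

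In ZF against ZL, a few lysosomal genes differed in both directions and the autophagy machinery hardly at all. Gene by gene, a limma fit over the 3 groups with Benjamini-Hochberg adjustment over all genes tested called 5 of the 22 lysosomal members (2 higher, 3 lower) and 1 of the 21 autophagy members (lower). Of all genes tested 18.8% were called in this comparison (8.19% higher, 10.6% lower), so the share of lysosomal members called, 22.7%, was near the background and that of autophagy members, 4.76%, was under it. At an unadjusted p under 0.05 there were 9 lysosomal and 5 autophagy members, against 33.1% of all genes. Gusb and Scarb2 rose, and Ctsh, Lipa, Mcoln1 and Atg12 fell. Without ZF rat 5 the lysosomal count was 3 (3 higher, none lower) and the autophagy count was 1, with 13.6% of all genes called. Leaving out ZL rat 3, ZF rat 2 or ZF rat 3 gave 1, 2 and 1 lysosomal members, where 15.3%, 12.5% and 12.3% of all genes were called. With 1 rat left out in turn, the fewest genes in all, 11.9%, were called without ZL rat 1, with 4 lysosomal members. Leaving out ZL rat 3, ZL rat 4 or ZF rat 4 gave 2 autophagy members, where 15.3%, 15.2% and 21.1% of all genes were called. Under quantile normalization the lysosomal calls were 4 higher and 1 lower, the autophagy calls 1 and 1, and those of all genes 1103 higher and 942 lower in place of 953 and 1232. In bulk tissue, fewer cells of a type and less RNA per cell cannot be told apart.

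In ZF-SGLT2i against ZF, limma called none of the 22 lysosomal members and 1 of the 21 autophagy members, Ulk2, which was lower. The background in this comparison was 3.15% of all genes tested (1.39% higher, 1.75% lower). At an unadjusted p under 0.05 there were 4 lysosomal members and 2 autophagy members, against 17.2% of all genes. edgeR called 1 lysosomal member, with 3.16% of all genes called, and DESeq2 called 2, with 5.51%. Leaving out ZF rat 5 gave 2 lysosomal members, both lower, and no autophagy member, for 569 genes called in place of 366. Without ZL rat 3 there was 1 lysosomal and 1 autophagy member, for 405 genes called. Without ZL rat 4 there were 2 lysosomal members, for 525 genes called. No autophagy member was called without ZL rat 1 or 2 or without any 1 of the 8 ZF and ZF-SGLT2i rats. In these fits 1.52% to 4.9% of all genes were called.

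The comparison of ZF-SGLT2i with ZL uses the rats of both others. It called 8 lysosomal members (2 higher, 6 lower) and 3 autophagy members (all lower), with a background of 27.4% of all genes (12.4% higher, 15% lower), and 12 and 4 were at an unadjusted p under 0.05, against 39.3% of all genes. Under quantile normalization the lysosomal split was 6 higher and 5 lower and the autophagy split 1 and 2, with 26.4% of all genes called. Without ZL rat 3 there were 8 lysosomal and 2 autophagy members, with 25.8% of all genes called. Without ZF rat 5 there were 9 and 3, with 27.8% of all genes called. A single autophagy member was called without ZL rat 1, ZF-SGLT2i rat 2 or ZF-SGLT2i rat 6, where 19.5%, 23.5% and 19.3% of all genes were called. Over the 3 comparisons 15 of the 43 members were called at least once, against 32.7% of all genes, and 28 in none.

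Some cell type markers also differed between ZF-SGLT2i and ZL by limma, and those named here were chosen after their values were seen. Their counts stand beside the 27.4% of all genes called in this comparison (12.4% higher, 15% lower). Under quantile normalization 26.4% of all genes were called. Of 14 proximal tubule markers 6 were lower (Lrp2, Slc34a1, Gatm, Miox, Fbp1 and Hnf4a) and 1 higher (Pck1), or 4 and 2 under quantile normalization. Of 8 intercalated cell markers 4 were higher (7 under quantile normalization), and of 6 principal cell markers 5, with none of either lower. Of 11 injured tubule markers 7 were higher and 1 lower, and of 7 thick limb and distal tubule markers 1 was higher and 2 lower. Of 7 podocyte and of 8 endothelial markers 3 each were higher and none lower. Of 3 lymphocyte markers 1 was lower (33.3%), and of 4 blood markers 1 was higher (25%), near the 27.4% of all genes. The principal cell markers, those of the collecting duct cell that takes up sodium and water, summed to 833, 1030.2, 759 and 631 in ZL, 995, 1169.7, 832 and 1195 in ZF and 1321, 1448, 1393 and 1662 in ZF-SGLT2i CPM, 55.8% of it from Aqp2. The treated rats were all above the other 8 in this sum. The part of these cells in the members' values was not tested.

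**Figure D1:**
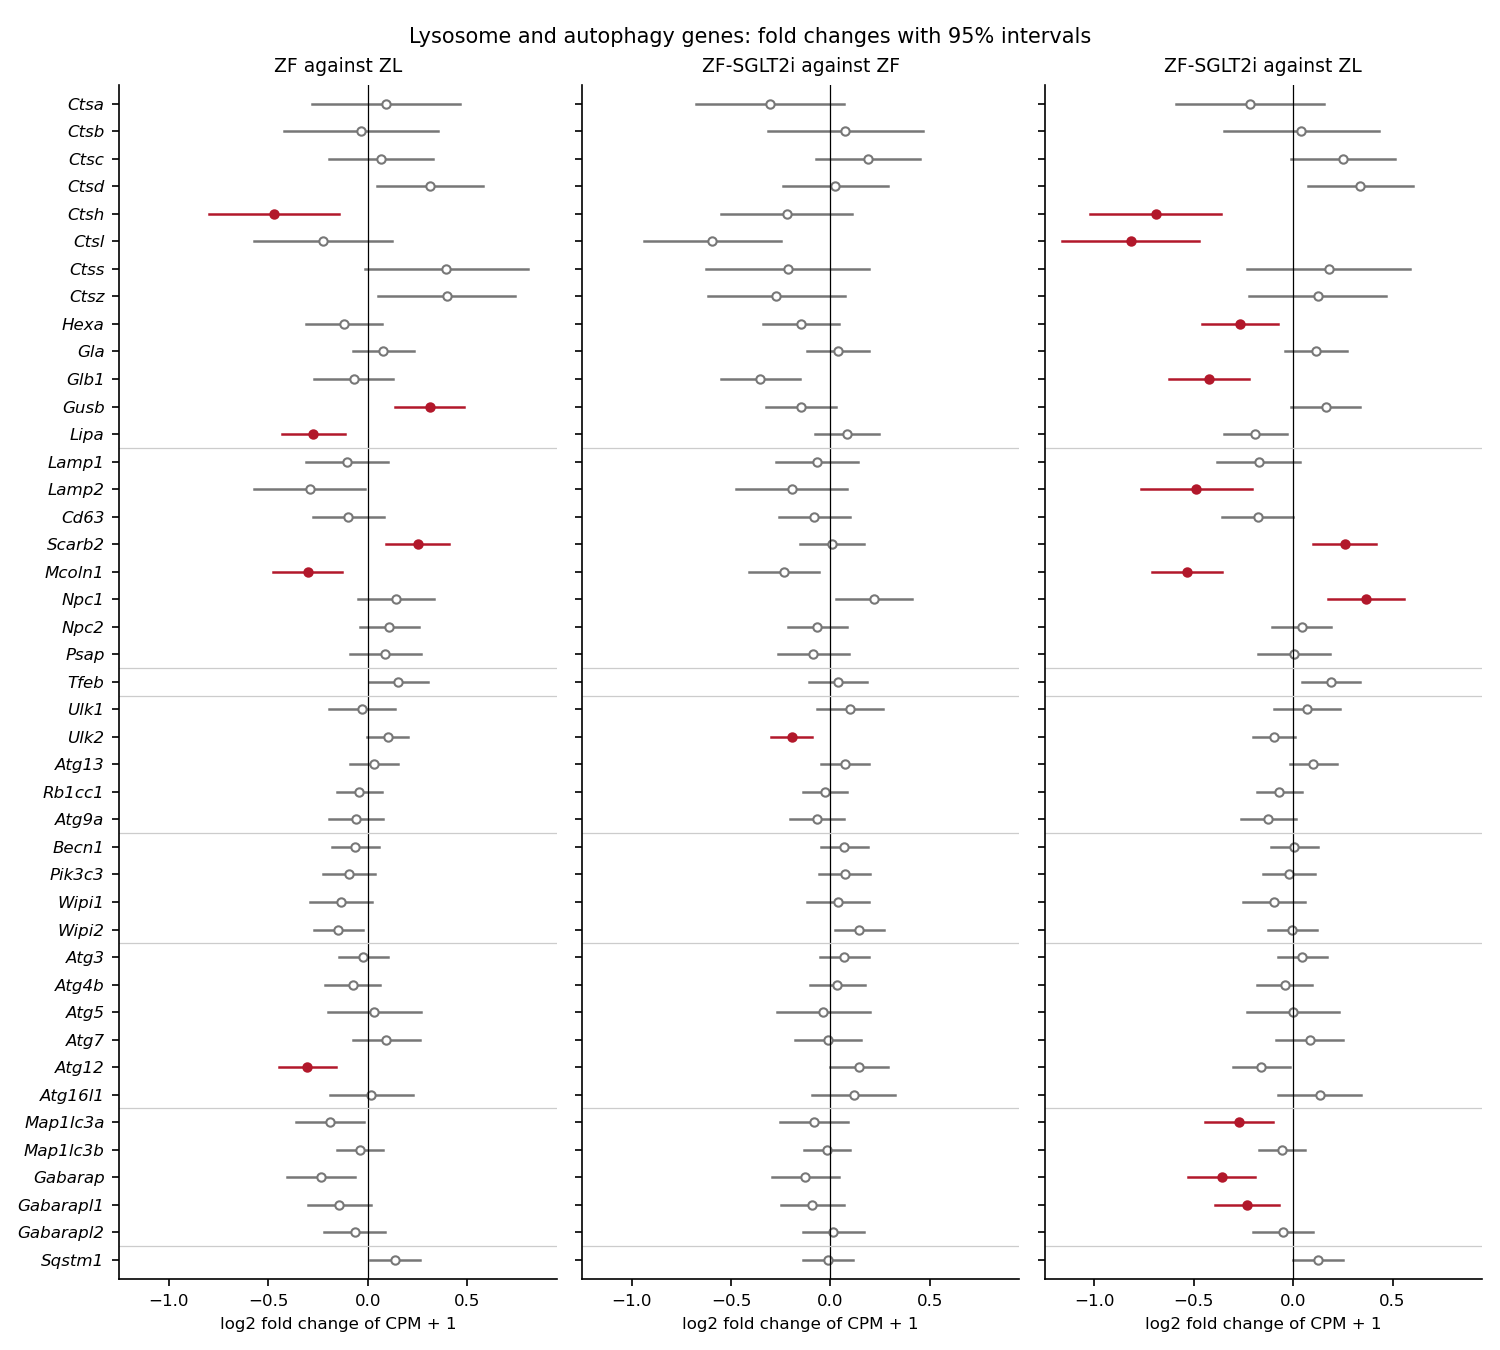
Log2 fold changes of CPM + 1 (x axis) of the 43 genes (y axis, ordered by role, with grey lines between roles) in the 3 comparisons, with 95% intervals from limma; filled red points have an adjusted p under 0.05. The red points number 6 in ZF against ZL, 1 in ZF-SGLT2i against ZF and 11 in ZF-SGLT2i against ZL, and most intervals of the autophagy genes are narrower than those of the enzymes.

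Among the proteases, Ctsb, the cysteine protease with the most reads of all 43 genes, gave 2731, 3364, 3412 and 2114 in ZL, 2318, 3288, 3444 and 2299 in ZF and 3159, 2691, 3383 and 2583 in ZF-SGLT2i. Its groups overlapped throughout, with rats 4 of ZL and 2 and 5 of ZF low and rats 2 and 3 of ZL and 3 and 4 of ZF high. The log2 fold change was -0.03 ± 0.18 (SE) for ZF against ZL and 0.07 ± 0.18 for the treated rats against ZF, with 95% intervals of -0.42 to 0.35 and -0.31 to 0.46 and limma adjusted p of 0.923 and 0.878.

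Ctsd, the aspartic protease of the lysosome, gave 935, 999, 794 and 606 in ZL, 1033, 1079, 1001 and 961 in ZF and 1058, 1086, 1005 and 995 in ZF-SGLT2i. All 4 ZF rats and all 4 ZF-SGLT2i rats lay above ZL rats 1, 3 and 4, and only ZL rat 2 reached into their range. The difference was 0.31 ± 0.12 in ZF against ZL (limma adjusted p = 0.093) and 0.03 ± 0.12 in ZF-SGLT2i against ZF (adjusted p = 0.944), neither called. Without ZL rat 2 the first of these had an adjusted p of 0.029, and under quantile normalization one of 0.014. Against ZL the treated rats were higher by 0.34 on the log2 scale, not called (limma adjusted p = 0.056). DESeq2 called that difference (0.034), as did limma under quantile normalization (0.005) and without ZL rat 1 (0.048) or 2 (0.017).

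Ctsh, a cysteine protease with aminopeptidase activity, gave 1259, 1279, 1469 and 987 in ZL, 748, 903, 1121 and 834 in ZF and 779.9, 691, 980.2 and 649.8 in ZF-SGLT2i. ZL rats 1, 2 and 3 stood above all ZF rats, and ZL rat 4 lay below ZF rat 4. Ctsh fell in ZF by 0.47 ± 0.15 on the log2 scale (limma adjusted p = 0.0459; exact permutation p = 0.0571, two-sided, against a smallest possible 0.0286). That call was lost when any of ZL rats 1, 2 and 3, ZF rats 2, 3 and 5 or ZF-SGLT2i rats 2 and 3 was left out (adjusted p 0.058 to 0.13), and under quantile normalization (0.17). The fit of ZF and ZL alone (0.06) and the fit without a filter on low values (0.051) also lost it. The change from ZF to ZF-SGLT2i was -0.22 ± 0.15 (adjusted p = 0.5), and against ZL the ZF-SGLT2i rats were lower by 0.69 on the log2 scale (adjusted p = 0.00488) with no overlap.

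Ctsl, a cysteine endopeptidase, was singled out after its values had been seen, because it had the lowest log2 fold change of the 43 in both comparisons of ZF-SGLT2i. Its levels were 879, 760.5, 877 and 1092 in ZL, 797, 703, 1023 and 600.1 in ZF and 567, 494, 589 and 401 in ZF-SGLT2i. Every ZF-SGLT2i rat lay below every ZL and every ZF rat, and ZF rat 5 was the ZF rat nearest to them. In ZF against ZL the difference was -0.22 ± 0.16 (limma adjusted p = 0.364), in ZF-SGLT2i against ZF it was -0.59 ± 0.16 (adjusted p = 0.0657, not called), and in ZF-SGLT2i against ZL it was -0.82 ± 0.16 (adjusted p = 0.00249). DESeq2 called the second of these (adjusted p = 0.0073), as did the limma fits without ZL rat 4 (0.041) or ZF rat 5 (0.023), and the third was called in all 22 alternatives.

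The remaining proteases were called in no comparison. Ctsa, a carboxypeptidase that also protects other lysosomal enzymes, was at 1309 ± 289.6 in ZL rats, 1392 ± 319 in ZF rats and 1109 ± 116 in treated rats (CPM, mean ± SD, n = 4 each). Ctsc, which activates serine proteases of leukocytes, was at 331 ± 65.3 in ZL rats, 342 ± 25.3 in ZF rats and 389 ± 29.9 in treated rats. Against ZL, Ctsc was called higher in treated rats under quantile normalization (0.36, limma adjusted p = 0.039) and without ZL rat 2 (0.35, 0.043). Ctss and Ctsz had few reads. Ctss, known from antigen-presenting cells, was at 9.91 ± 1.25 in ZL rats, 13.5 ± 2.83 in ZF rats and 11.7 ± 3.26 in treated rats, and Ctsz at 9.81 ± 1.75 in ZL rats, 13.3 ± 2.75 in ZF rats and 10.8 ± 1.80 in treated rats. Their ZF against ZL differences, 0.39 ± 0.19 and 0.40 ± 0.16, were the largest positive ones of the 43 genes, and Ctsz was called without ZF rat 5 (limma adjusted p = 0.032).

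Among the glycosidases, Gusb, which cleaves glucuronic acid from glycosaminoglycans, gave 23.9, 24.7, 22.7 and 21.9 in ZL, 28.8, 30.5, 28.2 and 29.1 in ZF and 28.1, 26.8, 28.4 and 22.0 in ZF-SGLT2i. All ZF rats lay above all ZL rats, and ZF-SGLT2i rat 6 lay in the ZL range while the other 3 treated rats lay above it. Gusb rose in ZF by 0.31 ± 0.081 on the log2 scale (limma adjusted p = 0.0177), a call lost without ZF rat 3 (0.054). From ZF to ZF-SGLT2i the difference was -0.15 ± 0.081 (adjusted p = 0.379).

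Glb1, the beta-galactosidase that removes galactose from gangliosides, was also chosen for description after its values had been seen. It gave 220.4, 248.9, 264 and 191 in ZL, 201, 232, 242 and 202 in ZF and 176, 172, 175 and 161 in ZF-SGLT2i. The 4 treated rats lay close together and below every other rat, and ZL and ZF overlapped. Between treated and ZF rats the difference was -0.35 ± 0.093 with a limma adjusted p of 0.0575, not called, while edgeR gave 0.045 and DESeq2 0.0092, quantile normalization 0.041, and leaving out ZL rat 3, ZL rat 4 or ZF rat 5 gave 0.038, 0.019 and 0.044. Against ZL it was lower by 0.42 (adjusted p = 0.00467).

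Hexa, the alpha subunit of the hexosaminidase that degrades GM2 ganglioside, was at 252 ± 21.2 in ZL rats, 233 ± 29.9 in ZF rats and 209 ± 13.0 in treated rats and was called in ZF-SGLT2i against ZL only, at -0.27 ± 0.089 (limma adjusted p = 0.0394). This call was lost without ZL rat 1, 2 or 3 or ZF-SGLT2i rat 3, 4 or 6 (adjusted p 0.065 to 0.12) and under quantile normalization (0.14). Gla, the alpha-galactosidase missing in Fabry disease, was at 44.5 ± 4.36 in ZL rats, 46.9 ± 1.75 in ZF rats and 48.2 ± 2.98 in treated rats and was called in no comparison.

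Lipa, the acid lipase that frees cholesterol and fatty acids from lipoproteins, gave 152, 156, 179 and 152 in ZL, 137, 131, 139 and 120.5 in ZF and 147, 148, 141 and 124 in ZF-SGLT2i. The 4 ZF rats lay below the 4 ZL rats, and ZL rat 3 was higher than the rest of its group. Lipa fell in ZF by 0.27 ± 0.074 on the log2 scale (limma adjusted p = 0.0214). Leaving out ZL rat 3, ZF rat 3 or ZF rat 5 ended the call (0.057, 0.052 and 0.061), as did quantile normalization (0.11). The treated rats overlapped with ZF, with a difference of 0.08 ± 0.074 (adjusted p = 0.619).

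**Figure D2:**
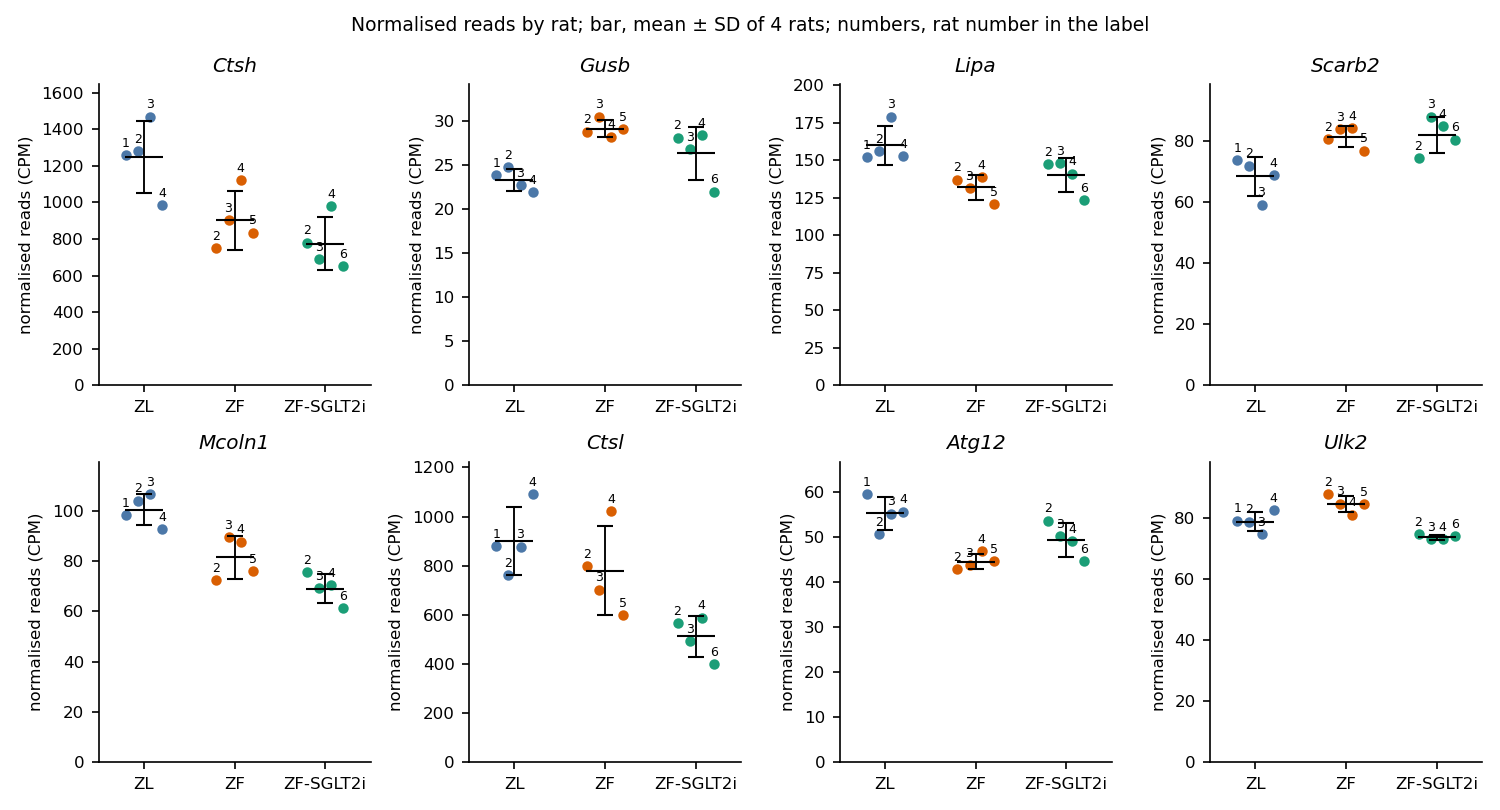
Normalised reads in CPM (y axis, from 0) of 8 genes in each rat, by group (x axis), with the rat's number above its point and the mean ± SD of 4 rats in black. ZF and ZL do not overlap for Gusb, Lipa, Scarb2, Mcoln1 and Atg12, and ZF-SGLT2i and ZF do not overlap for Ctsl and Ulk2.

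Of the membrane proteins, Lamp1, a main glycoprotein of the lysosomal membrane, gave 1049.9, 1104, 1104 and 860.4 in ZL, 877, 986, 1085 and 878 in ZF and 957, 936, 899 and 845 in ZF-SGLT2i. The groups overlapped, and ZL rat 4 and ZF-SGLT2i rat 6 were the lowest of theirs. The differences were -0.10 ± 0.096 in ZF against ZL (limma adjusted p = 0.492) and -0.07 ± 0.096 in ZF-SGLT2i against ZF (adjusted p = 0.772). Lamp2, its partner that also serves as receptor in chaperone-mediated autophagy, was at 228 ± 13.0 in ZL rats, 189 ± 44.0 in ZF rats and 163 ± 20.1 in treated rats. It was called in ZF-SGLT2i against ZL at -0.49 ± 0.13 (adjusted p = 0.0135), and in ZF against ZL, at -0.29 ± 0.13, only without ZF rat 4 (0.0062) or with array quality weights (0.036).

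Scarb2, the receptor LIMP-2 that carries glucocerebrosidase to the lysosome, gave 73.7, 71.8, 59.1 and 68.7 in ZL, 80.4, 83.7, 84.1 and 76.7 in ZF and 74.2, 87.8, 84.8 and 80.4 in ZF-SGLT2i. Every ZF rat and every treated rat was above every ZL rat, ZF-SGLT2i rat 2 by less than 1 CPM. Scarb2 rose in ZF by 0.25 ± 0.074 on the log2 scale (limma adjusted p = 0.0312), and the call was lost without ZL rat 3 or 4 or ZF rat 2, 3 or 4 (0.052 to 0.082). The fit of ZF and ZL alone also lost the call (0.052). ZF-SGLT2i differed from ZF by 0.01 ± 0.074 (adjusted p = 0.973, 95% interval -0.15 to 0.17) and from ZL by 0.26 ± 0.074 (adjusted p = 0.0196; 0.066 without ZF-SGLT2i rat 3).

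Mcoln1, the calcium release channel TRPML1, gave 98.3, 104, 107 and 92.8 in ZL, 72.5, 89.6, 87.8 and 76.1 in ZF and 75.5, 69.2, 70.4 and 61.4 in ZF-SGLT2i. ZF rats were all below ZL rats, and the treated rats were all below ZL rats and below ZF rats 3, 4 and 5, while ZF rat 2 lay among them. Mcoln1 fell in ZF by 0.30 ± 0.081 on the log2 scale (limma adjusted p = 0.0211), a call lost without ZL rat 3 (0.055), ZF rat 2 (0.068) or ZF rat 5 (0.057). Treated rats differed from ZF rats by -0.23 ± 0.081 (adjusted p = 0.149). In ZF-SGLT2i against ZL it was lower by 0.53 ± 0.081 (adjusted p = 0.000494), called in all 22 alternatives.

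Npc1, which exports cholesterol from the lysosome, was at 43.4 ± 6.35 in ZL rats, 47.7 ± 2.75 in ZF rats and 55.7 ± 1.47 in treated rats. The treated rats lay above all others, and it was called against ZL (0.36 ± 0.089, limma adjusted p = 0.0085) but not against ZF (0.22 ± 0.089, adjusted p = 0.213). Its soluble partner Npc2, the tetraspanin Cd63 and Psap, the precursor of the saposins, were called in no comparison, with ZF against ZL differences of 0.11 ± 0.069, -0.10 ± 0.083 and 0.09 ± 0.084. Under quantile normalization Psap was called in ZF against ZL (0.28, limma adjusted p = 0.0164) and in ZF-SGLT2i against ZL (0.23, 0.0308).

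Tfeb itself gave 42.9, 40.7, 44.5 and 41.1 in ZL, 44.1, 49.0, 45.3 and 50.4 in ZF and 45.4, 54.1, 47.9 and 46.5 in ZF-SGLT2i. ZF rat 2 lay just below ZL rat 3 and the other ZF rats above all ZL rats, and the treated rats all lay above the ZL rats. The differences were 0.15 ± 0.068 in ZF against ZL (limma adjusted p = 0.131), 0.04 ± 0.068 in ZF-SGLT2i against ZF (0.835) and 0.19 ± 0.068 in ZF-SGLT2i against ZL (0.0517, and under 0.05 in 9 of 22 alternatives). These are transcript levels, and TFEB's place in the cell was not measured.

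TFEB is known to bind a palindrome called the CLEAR element, whose core is TCACGTGA, so the members' promoters were searched for it. RefSeq promoters of GRCr8, 250 bases before to 50 after the start, were matched for 36 of the 43 members (not Ctsb, Hexa, Psap, Rb1cc1, Atg9a, Becn1 and Map1lc3a). TCACGTGA was in 4 of the 36 (11.1%), those of Lamp1, Ctsd, Mcoln1 and Atg3, against 0.777% of the 33469 promoters in the table and 1.56% of the 9269 promoters of genes tested. CACGTG, the E-box inside it, was in 7 of 36 (19.4%) against 6.42% and 9.06%. The longer form, with a G before TCACGTGA and a C after it, was in 0 of the 36 against 0.233% and 0.475%. The letters read the same on both strands, and every TCACGTGA also counts as a CACGTG. The stretches that hold them are shown 5′ to 3′ on the gene's strand, with TCACGTGA and other CACGTG in capitals, because these 4 genes carry the core of the element.
Lamp1, GRCr8 chr16:83075064-83075273, minus strand: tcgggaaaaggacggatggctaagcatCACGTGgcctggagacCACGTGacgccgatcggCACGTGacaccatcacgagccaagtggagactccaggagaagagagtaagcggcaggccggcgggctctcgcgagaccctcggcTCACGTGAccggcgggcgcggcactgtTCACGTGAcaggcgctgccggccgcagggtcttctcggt
Ctsd, GRCr8 chr1:206968822-206969005, minus strand: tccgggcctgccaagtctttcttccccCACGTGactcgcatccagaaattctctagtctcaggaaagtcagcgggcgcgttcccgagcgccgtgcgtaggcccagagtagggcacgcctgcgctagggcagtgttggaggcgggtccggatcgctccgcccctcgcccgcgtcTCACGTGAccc
Mcoln1, GRCr8 chr12:6358209-6358257, plus strand: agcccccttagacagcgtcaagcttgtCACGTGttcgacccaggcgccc
Mcoln1, GRCr8 chr12:6358250-6358279, plus strand: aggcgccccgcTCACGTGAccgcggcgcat
Atg3, GRCr8 chr11:69159281-69159346, minus strand: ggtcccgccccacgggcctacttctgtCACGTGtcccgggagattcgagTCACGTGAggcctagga
The Lamp1, Ctsd and Atg3 stretches and the first of Mcoln1 end at the last base before the start, and the second Mcoln1 stretch runs over the start. The fold changes of these 4 genes had both signs. In ZF against ZL their log2 fold changes were -0.10 for Lamp1, 0.31 for Ctsd, -0.30 for Mcoln1 and -0.02 for Atg3, of which only that of Mcoln1 was called, and in ZF-SGLT2i against ZF they were -0.07, 0.03, -0.23 and 0.07, none called. A match describes letters in a window and does not show a bound site. TFEB is known to switch on many of these genes, so a share above that of all promoters was likely before the search.

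The enzymes and membrane proteins varied between rats of a group more than the autophagy genes did. The median within-group SD was 0.138 on the log2 scale over the 22 lysosomal members, 0.0856 over the 21 autophagy members and 0.142 over all genes tested. The summed level of the 22 lysosomal members was 11166, 12326, 12311 and 9294 in ZL, 9738, 11542, 12756 and 9578 in ZF and 10678, 9921, 11008 and 9096 in ZF-SGLT2i. In ZL, rat 4 was the lowest of its group for 14 of the 22 members, and in ZF-SGLT2i, rat 6 was the lowest for 18. In ZF, rats 2 and 5 were the lowest for 10 and 11 and rat 4 the highest for 11. The groups overlapped in this sum, with means of 11274 ± 1427 in ZL rats, 10904 ± 1522 in ZF rats and 10176 ± 851 in treated rats (SD, n = 4). For 4 lysosomal members the ZF and ZL values did not overlap, against 19% of all genes, 3 had ZF-SGLT2i and ZF values that did not, against 11.2%, and 10 had ZF-SGLT2i and ZL values that did not, against 28%.

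**Figure D3:**
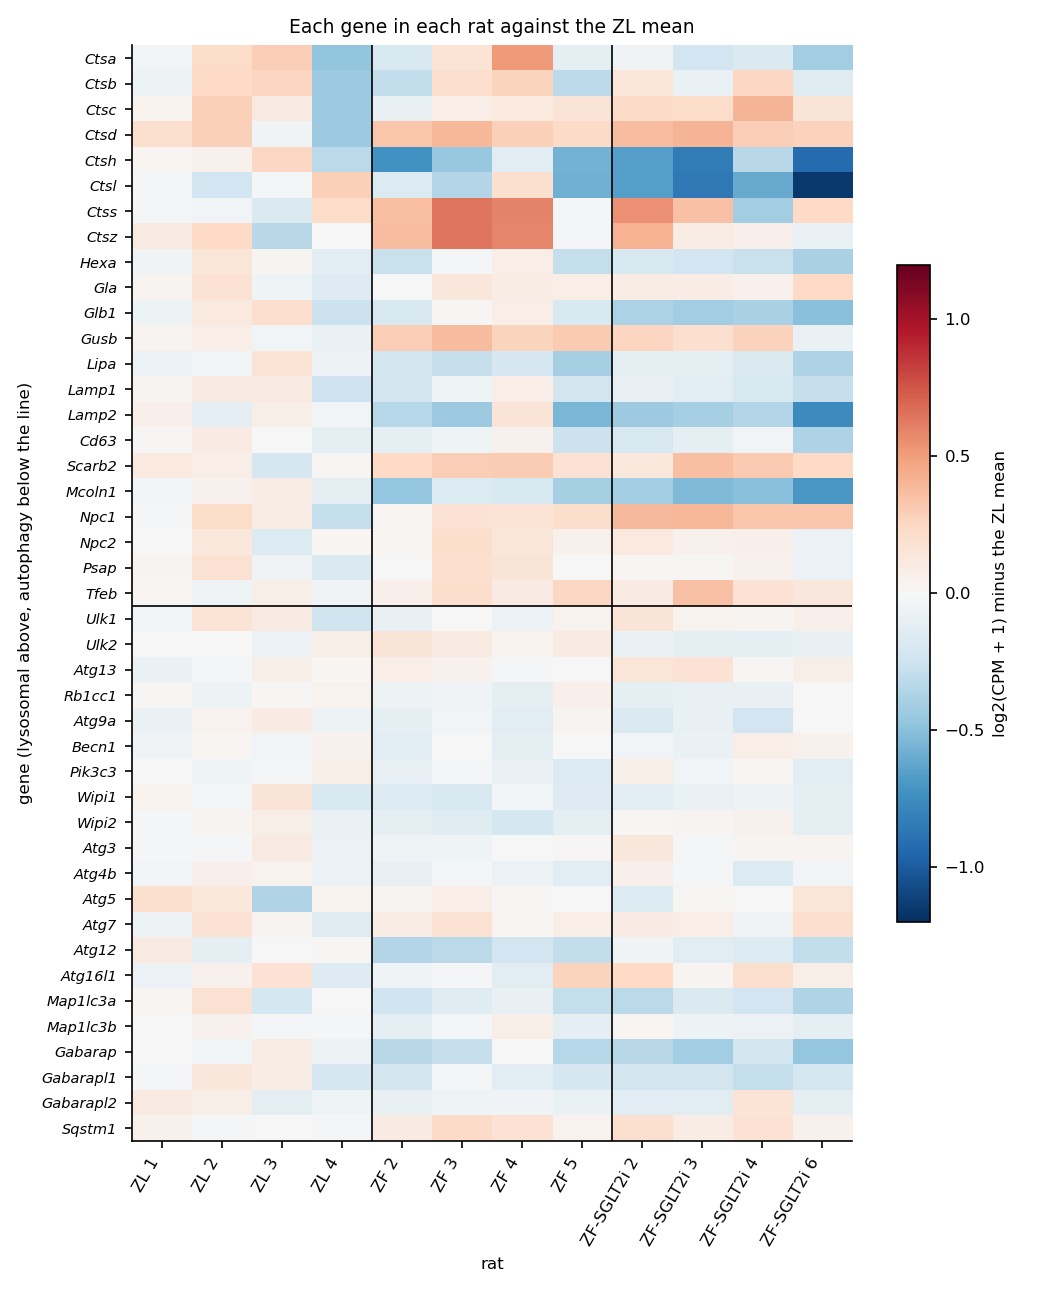
Each of the 43 genes (rows) in each of the 12 rats (columns), coloured by log2(CPM + 1) minus the mean of the 4 ZL rats, red above and blue below; black lines separate the groups and the lysosomal from the autophagy genes. ZL rat 4 is blue for many enzymes, Ctsh, Ctsl and Mcoln1 are blue in the treated rats, and the autophagy rows are pale.

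The autophagy genes had the narrower intervals. Their summed level was 2332, 2397, 2368 and 2223 in ZL, 2174, 2317, 2287 and 2199 in ZF and 2249, 2187, 2232 and 2175 in ZF-SGLT2i. ZL rats 1, 2 and 3 had the highest sums of the 12, and ZL rat 4 lay among the other groups. For 2 of the 21 the ZF and ZL values did not overlap, against 19% of all genes, for 1 the ZF-SGLT2i and ZF values, against 11.2%, and for 3 the ZF-SGLT2i and ZL values, against 28%. Of the 21, 17 had a 95% interval within 0.3 of 0 on the log2 scale in ZF against ZL and 20 did in ZF-SGLT2i against ZF, while 5 and 9 of the 22 lysosomal members did. All 21 intervals lay within 0.5 of 0 in both comparisons. The median log2 fold change was -0.059 for ZF against ZL and 0.015 for the treated rats against ZF, beside 0.072 and -0.083 for the lysosomal members and -0.0077 and 0.0064 for all genes. Under quantile normalization the first of these medians was 0.021, and the lysosomal one was 0.17.

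In the initiation complex, Ulk1, the kinase that starts autophagy and is held back by mTORC1, gave 104, 119, 115 and 89.9 in ZL, 99.5, 106, 101 and 109.6 in ZF and 118, 109, 109 and 111 in ZF-SGLT2i. The groups overlapped, with a difference of -0.03 ± 0.077 in ZF against ZL (limma adjusted p = 0.823) and 0.10 ± 0.077 in ZF-SGLT2i against ZF (0.551). Ulk2, its close relative, gave 79.2, 78.9, 74.8 and 82.6 in ZL, 87.9, 84.8, 81.2 and 84.6 in ZF and 74.7, 73.2, 73.1 and 74.0 in ZF-SGLT2i. The treated rats lay within 2 CPM of each other and below every ZF and ZL rat, though only just below ZL rat 3. Ulk2 was lower in ZF-SGLT2i than in ZF by 0.20 ± 0.048 on the log2 scale (adjusted p = 0.0436; exact permutation p = 0.0286, the smallest that 4 against 4 can give). The call was lost when any 1 of the 4 ZF or 4 ZF-SGLT2i rats or ZL rat 1 or 2 was left out (0.056 to 0.13). The fit of ZF-SGLT2i and ZF alone also lost it (0.056). Atg13 and Rb1cc1, the scaffolds of the complex, and Atg9a, the scramblase that supplies lipid, differed by 0.03, -0.04 and -0.06 in ZF against ZL, none called.

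In the lipid kinase step, Becn1, the regulatory subunit beclin 1, gave 90.5, 95.2, 91.2 and 96.8 in ZL, 85.5, 93.0, 86.0 and 93.2 in ZF and 91.5, 88.1, 99.0 and 97.1 in ZF-SGLT2i. Its groups overlapped in both comparisons, at -0.06 ± 0.055 (limma adjusted p = 0.468) and 0.07 ± 0.055 (0.567). Pik3c3, the kinase VPS34, and the readers of its product, Wipi1 and Wipi2, were called in no comparison. Wipi2 had ZF values below all ZL values, with means of 52.6 ± 2.47 in ZL rats, 47.4 ± 1.48 in ZF rats and 52.5 ± 2.74 in treated rats and a difference of -0.15 ± 0.057 (adjusted p = 0.0896).

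In the conjugation system, Atg12, the ubiquitin-like protein that is joined to ATG5, gave 59.5, 50.6, 55.1 and 55.6 in ZL, 42.9, 43.7, 46.7 and 44.6 in ZF and 53.6, 50.1, 49.0 and 44.6 in ZF-SGLT2i. The 4 ZF rats lay below all ZL rats, and the treated rats reached into both ranges. Atg12 fell in ZF by 0.30 ± 0.067 on the log2 scale (limma adjusted p = 0.00828; exact permutation p = 0.0286), and no single rat left out ended the call. Treated rats differed from ZF rats by 0.14 ± 0.067 (adjusted p = 0.296). The other 5 members of the step, the E1-like Atg7, the E2-like Atg3, the protease Atg4b, and Atg5 with Atg16l1, had ZF against ZL differences of -0.08 to 0.09, none called.

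Among the ATG8 proteins, Map1lc3b, the LC3B gene whose product is the usual marker of autophagosomes, gave 207, 217, 205 and 204 in ZL, 194, 207, 219 and 193 in ZF and 211, 200.1, 198 and 193 in ZF-SGLT2i. Groups overlapped, and the differences were -0.04 ± 0.054 (limma adjusted p = 0.67) and -0.02 ± 0.054 (0.913). All 5 ATG8 genes had a lower mean in ZF than in ZL without a call, at -0.23 for Gabarap, -0.19 for Map1lc3a, -0.14 for Gabarapl1, -0.07 for Gabarapl2 and -0.04 for Map1lc3b, but the median of the 5 was 0.021 under quantile normalization. Gabarap was called without ZF rat 4 (0.0053), Map1lc3a without ZL rat 3 (0.03) and Gabarapl1 without ZL rat 4 (0.045).

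In ZF-SGLT2i against ZL, Gabarap (-0.36 ± 0.079, limma adjusted p = 0.00477), Map1lc3a (-0.27 ± 0.08, 0.0222) and Gabarapl1 (-0.23 ± 0.074, 0.0323) were called lower. The Gabarap values were 210.4, 204, 222 and 200.5 in ZL, 166, 173, 210.3 and 165 in ZF and 166, 156, 179 and 151 in ZF-SGLT2i. Its treated rats were below all ZL rats, and ZF rat 4 was the one ZF rat in the ZL range. The Map1lc3a call was lost without ZL rat 1 or 2 or ZF-SGLT2i rat 2 or 6 (0.056 to 0.068). That of Gabarapl1 was lost without ZL rat 1, 2 or 3 or any treated rat (0.059 to 0.085) and under quantile normalization (0.46).

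Sqstm1, the cargo receptor p62, gave 375, 355, 361 and 358 in ZL, 388, 426, 409.5 and 373 in ZF and 414, 385, 409 and 374 in ZF-SGLT2i. ZF rats 2, 3 and 4 lay above all ZL rats, and ZF rat 5 lay below ZL rat 1. The difference was 0.14 ± 0.058 in ZF against ZL (limma adjusted p = 0.116; 0.003 under quantile normalization and 0.041 by DESeq2) and -0.01 ± 0.058 in ZF-SGLT2i against ZF (0.939). Map1lc3b and Sqstm1 are transcript levels here, and autophagic flux was not measured.

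Other genes of the same pathways were read from lists outside the 43, and their counts stand beside the shares of all genes called, 18.8% and 3.15%. Of 32 other lysosomal enzymes tested, 1 rose and 3 fell in ZF against ZL, and without ZF rat 5 only 1 was called, lower. Those that fell were Manba, a mannosidase (121 ± 9.28 in ZL rats, 99.0 ± 5.54 in ZF rats and 96.8 ± 6.44 in treated rats; log2 fold change -0.29 ± 0.068, limma adjusted p = 0.0114), Aga, an amidase of glycoproteins (-0.30 ± 0.086, 0.0269), and Ppt2, a thioesterase (-0.25 ± 0.078, 0.0405). The Aga call was lost without ZL rat 1, 3 or 4 or ZF rat 2, 3 or 5 (0.062 to 0.075), and that of Ppt2 without ZL rat 1, 3 or 4, ZF rat 2, 4 or 5 or ZF-SGLT2i rat 2 or 3 (0.051 to 0.12) and under quantile normalization (0.07). Gm2a, the GM2 activator, rose by 0.21 ± 0.068 (0.042), a call lost without ZL rat 1, 3 or 4, ZF rat 3, 4 or 5 or ZF-SGLT2i rat 3 or 4 (0.052 to 0.11).

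Of 23 other lysosomal membrane proteins, 3 rose and 3 fell in ZF against ZL (1 and 3 without ZF rat 5), and 1 fell in ZF-SGLT2i against ZF. Gpnmb, a glycoprotein known from macrophages and from stressed lysosomes, gave 3.05, 5.98, 3.97 and 5.00 in ZL, 19.3, 11.9, 20.2 and 9.84 in ZF and 18.1, 10.5, 7.14 and 5.46 in ZF-SGLT2i. Every ZF rat was above every ZL rat, and the treated rats spread over both ranges. Gpnmb rose by 1.54 ± 0.31 on the log2 scale (limma adjusted p = 0.00464), the largest difference of any lysosomal gene in these lists. Treated and ZF rats differed by -0.59 ± 0.31 (0.347).

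Slc36a1, a proton-coupled amino acid transporter that takes part in mTORC1 signalling at the lysosome, gave 26.5, 32.2, 28.1 and 30.6 in ZL, 19.3, 21.4, 22.7 and 21.9 in ZF and 17.4, 17.0, 14.2 and 15.05 in ZF-SGLT2i. The 3 groups did not overlap, ZL being highest and ZF-SGLT2i lowest. It fell by 0.44 ± 0.088 in ZF against ZL (limma adjusted p = 0.00458) and by 0.40 ± 0.088 in ZF-SGLT2i against ZF (0.0247; 0.066 to 0.075 without ZF rat 3 or 4 or ZF-SGLT2i rat 4 or 6). These comparisons share the ZF rats. Slc29a3, a lysosomal nucleoside transporter, was at 113 ± 9.15 in ZL rats, 72.4 ± 12.3 in ZF rats and 62.7 ± 6.93 in treated rats and fell in ZF by 0.65 ± 0.11 (0.00187). Treated and ZF rats differed by -0.20 ± 0.11 (0.385).

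The other called genes of this list and of 2 others, Gm2a above and Fnip2 and Lamtor2 below included, were named after their values had been seen. Tpcn1, a cation channel of the endolysosome, fell by 0.30 ± 0.07 in ZF (limma adjusted p = 0.0112; 0.29 under quantile normalization). Abca2, a lipid transporter, rose by 0.37 ± 0.11 (0.0337; 0.053 to 0.094 without ZL rat 1 or 4 or ZF rat 3, 4 or 5). Sidt2, a nucleic acid transporter, rose by 0.17 ± 0.053 (0.0405; 0.053 to 0.11 without ZL rat 1, 3 or 4, ZF rat 2, 3 or 5 or ZF-SGLT2i rat 3).

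In the V-ATPase, the proton pump of the lysosome, 3 of 22 subunits (13.6%, under the 18.8% of all genes) fell in ZF against ZL and none rose. They were Atp6v0d1 (-0.29 ± 0.069, limma adjusted p = 0.0108), Atp6v0e2 (-0.25 ± 0.071, 0.0246; 0.05 to 0.071 without ZL rat 1 or 4 or ZF rat 2 or 5) and Atp6v1g1 (-0.23 ± 0.06, 0.0197; 0.05 to 0.061 without ZL rat 4 or ZF rat 2, 3 or 5). Under quantile normalization 1 subunit was higher and 1 lower, and without ZF rat 5 only 1 was called, lower. After treatment, against ZF, limma and edgeR called none of the 22, with 6 at an unadjusted p under 0.05 (17.2% of all genes). DESeq2 called 3, with 5.51% of all genes called. The limma fit without ZF rat 5 called 3 (all higher), with 4.9%. Intercalated cells of the collecting duct carry the pump at their surface, and their 8 markers, some of which are pump subunits, summed to 2197, 2851, 2625 and 1929 in ZL, 2125, 2487, 2052 and 2736 in ZF and 3024, 2996, 3017 and 3087 in ZF-SGLT2i (Atp6v0a4 with the most reads). The treated rats were all above the others in this sum, 0 of the 8 were called by limma in ZF-SGLT2i against ZF (6 at an unadjusted p under 0.05, none by edgeR, 4 by DESeq2, 5 higher by limma without ZF rat 5), and their part in the pump subunits' values was not tested.

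In sorting by the mannose 6-phosphate route, 3 of 13 genes fell in ZF against ZL (1 without ZF rat 5; 1 higher and 1 lower under quantile normalization; 1 higher and 2 lower by edgeR and by DESeq2) and none was called in ZF-SGLT2i against ZF by limma, edgeR or DESeq2 (3 at an unadjusted p under 0.05). Nagpa, the uncovering enzyme that completes the mannose 6-phosphate tag, was at 10.7 ± 1.41 in ZL rats, 7.52 ± 0.552 in ZF rats and 8.66 ± 0.847 in treated rats and fell by 0.45 ± 0.11 in ZF (limma adjusted p = 0.011), called in each of the 21 alternatives that tested it. Vps26a of the retromer (-0.18 ± 0.058, 0.0441) and the adaptor Gga1 (-0.17 ± 0.049, 0.0261) were near the threshold. Vps26a was lost without any 1 of 9 rats (ZL 1, 2 and 3, ZF 2, 3 and 5, ZF-SGLT2i 2, 3 and 4; 0.052 to 0.11) and by edgeR and DESeq2, and Gga1 without ZL rat 1, 3 or 4 or ZF rat 2, 4 or 5 (0.05 to 0.076). Quantile normalization ended both calls, with a fold change of -0.11 for Gga1 (adjusted p = 0.141) and -0.16 for Vps26a (0.0829).

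Of 24 MiT/TFE factors and mTORC1 genes, 1 rose and 4 fell in ZF against ZL (2 lower and none higher without ZF rat 5), and 1 rose in ZF-SGLT2i against ZF (1 higher and 1 lower without ZF rat 5, and also by DESeq2). Tfec, a relative of Tfeb, was at 15.4 ± 1.94 in ZL rats, 9.87 ± 1.72 in ZF rats and 7.98 ± 1.19 in treated rats and fell by 0.60 ± 0.14 in ZF (limma adjusted p = 0.00964). Lamtor1 and Lamtor5, of the Ragulator that anchors mTORC1 to the lysosome, fell by 0.33 ± 0.061 (0.00331) and 0.44 ± 0.12 (0.0196; 0.058 without ZL rat 1 and 0.057 without ZF rat 5). Lamtor2, of the same complex, fell by 0.25 ± 0.078 (0.038; 0.051 to 0.093 without ZL rat 1, 3 or 4, any ZF rat or ZF-SGLT2i rat 3, and 0.058 under quantile normalization). Fnip2, a partner of folliculin, rose by 0.30 ± 0.095 (0.0437; 0.051 to 0.14 without ZL rat 1, 2 or 4, ZF rat 2, 3 or 5 or ZF-SGLT2i rat 3 or 6). Foxo1, a factor that also drives autophagy genes, rose in the treated rats by 0.31 ± 0.077 (0.0445), and the call was lost without ZL rat 1, 2 or 3, any ZF rat or ZF-SGLT2i rat 2, 3 or 6 (0.053 to 0.13) and under quantile normalization (0.053).

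None of 17 other autophagy genes was called by limma, edgeR or DESeq2 in ZF against ZL (1 at an unadjusted p under 0.05) or in ZF-SGLT2i against ZF (none at that level). Among 19 other cargo receptors, 2 fell in ZF against ZL (1 without ZF rat 5; 1 higher and 2 lower by DESeq2), Tex264, a receptor for the endoplasmic reticulum (-0.33 ± 0.075, limma adjusted p = 0.00912), and Tollip (-0.23 ± 0.068, 0.0307; 0.054 to 0.096 without ZL rat 1, 2 or 4 or ZF rat 2 or 5, and 0.14 under quantile normalization). By limma, the 1 called in ZF-SGLT2i against ZF (2 higher and 1 lower by DESeq2) was Ncoa4, which takes ferritin to the lysosome, with 346, 393, 411 and 363 in ZL, 359.8, 398, 386 and 423 in ZF and 535, 533, 479 and 506 in ZF-SGLT2i. All 4 treated rats were above the other 8, and ZF and ZL overlapped. The rise was 0.39 ± 0.071 on the log2 scale (adjusted p = 0.00935), called in all 22 alternatives. Of 16 genes for fusion with the lysosome, Rilp, an effector of Rab7, was the 1 called in ZF against ZL, falling by 0.44 ± 0.11 (0.0144). None of the 16 was called in ZF-SGLT2i against ZF by limma, edgeR or DESeq2 (4 at an unadjusted p under 0.05).

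**Figure D4:**
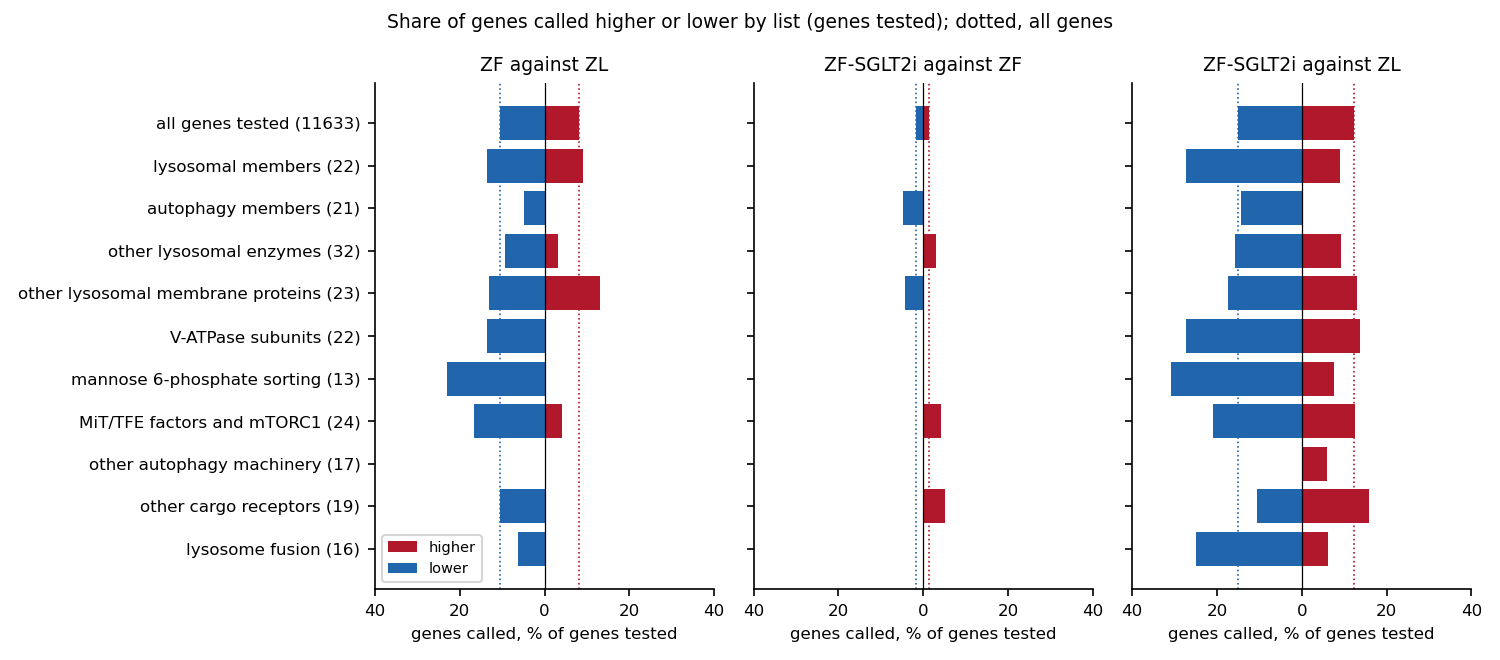
Percent of genes tested (x axis) called higher (red, to the right) or lower (blue, to the left) in each list (y axis, with the number tested) and comparison; dotted lines mark the share over all genes. In ZF-SGLT2i against ZF none of the 10 gene lists drawn had more than 1 gene called.

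Cell type markers were read beside these values, since lysosomal genes differ in level between cell types. The shares of all genes given for the pathway lists, 18.8% and 3.15% in the main fit, stand beside the marker counts as well. The 14 macrophage markers summed to 278, 270.5, 198 and 263 in ZL, 388, 375, 405 and 258 in ZF and 459, 278, 225 and 271 in ZF-SGLT2i CPM, 54.3% of it from Lyz2. All 13 tested had a log2 fold change above 0 in ZF against ZL and below 0 in ZF-SGLT2i against ZF, comparisons that share rats. In ZF-SGLT2i against ZL, 7 lay above 0 and 6 below. None of the 13 tested was called by limma in any of the 3 comparisons (5 and 2 at an unadjusted p under 0.05 in the first 2, 1 called by edgeR in ZF against ZL and 1 by DESeq2 in each of the first 2; without ZF rat 5, limma called 3 higher and 1 lower), with a median log2 fold change of 0.33 for ZF against ZL and -0.22 for the treated rats against ZF (0.48 and -0.38 without ZF rat 5). The defining markers were above 0 in every rat: Csf1r at 31.2 ± 5.15 in ZL rats, 41.5 ± 8.01 in ZF rats and 34.9 ± 7.63 in treated rats, C1qa at 10.2 ± 1.64 in ZL rats, 12.3 ± 2.17 in ZF rats and 11.7 ± 4.39 in treated rats, Adgre1 at 12.5 ± 3.48 in ZL rats, 14.99 ± 4.07 in ZF rats and 14.2 ± 11.8 in treated rats and Ptprc at 18.8 ± 1.94 in ZL rats, 25.2 ± 5.26 in ZF rats and 16.3 ± 3.41 in treated rats. Ctss, Ctsz and Gpnmb had their lowest ZF value in rat 5, where the macrophage sum was also the lowest of ZF. This rat was the lowest of ZF for 11 of the 22 lysosomal members. The part of macrophages in Ctss, Ctsz and Gpnmb was not tested.

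The 14 proximal tubule markers summed to 31362, 30460.5, 32712 and 27075 in ZL, 23853, 24668, 29680.4 and 23181 in ZF and 25378, 24313, 24932 and 20727 in ZF-SGLT2i CPM, with Lrp2 holding the most. By limma, and named after their values had been seen, 2 rose (Slc22a6 and Pck1) and 3 fell (Aqp1, Gatm and Miox) in ZF against ZL, against none and 1 without ZF rat 5 and 2 and 1 under quantile normalization, while 2 fell in the treated rats against ZF (Slc22a6 and Fbp1). Of all genes 18.8% were called in ZF against ZL, 13.6% without ZF rat 5 and 17.6% under quantile normalization. In ZF-SGLT2i against ZF the share was 3.15%. ZL rats 1, 2 and 3 had the highest sums, and the lowest was that of ZF-SGLT2i rat 6, the rat that was also the lowest of its group for 18 of the 22 lysosomal members. Ribosomal RNA genes took 10.0%, 12.0%, 7.25% and 10.6% in ZL, 11.2%, 12.0%, 8.82% and 11.8% in ZF and 12.0%, 14.3%, 11.5% and 15.2% in ZF-SGLT2i of the reads on genes. The share was highest in ZF-SGLT2i rat 6, and within ZF it was lowest in rat 4, the highest of its group for 11 lysosomal members. Other rats differed from this: ZL rat 2 had the highest share of ZL and was the highest of its group for 11. ZL rat 4, the lowest of its group for 14, had 10.6%. ZF rat 3, with the highest share of ZF, and ZF-SGLT2i rat 3, at 14.3%, were the lowest of their groups for 0. The part of this share in the members' values was not tested. Of 11 injured tubule markers, 7 rose in ZF against ZL, Havcr1 among them, and 1 fell in ZF-SGLT2i against ZF, with sums of 775 ± 64.7 in ZL rats, 1671 ± 677 in ZF rats and 1409 ± 324 in treated rats and Spp1 holding the most reads. Of 7 podocyte markers 3 rose in ZF against ZL (Nphs1, Podxl and Synpo; 1 without ZF rat 5 and 6 under quantile normalization) and none was called in the treated rats against ZF by limma (1 at an unadjusted p under 0.05; 0 by edgeR and 0 by DESeq2), with sums of 1511 ± 179 in ZL rats, 1928 ± 179.6 in ZF rats and 1959 ± 209 in treated rats and Podxl holding the most. The part of podocytes and of the tubule's state in the lysosomal values was not tested.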

How the data were processed

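Total RNA of renal cortex was depleted of ribosomal RNA and sequenced by strand-specific paired reads on DNBSEQ. The submitters' processing notes name Trimmomatic 0.38, Bowtie2, RSEM 1.3.0, edgeR and rn6, without roles. The deposited signal values were read counts that the authors scaled per library to CPM with TMM factors. Every value was a whole number of reads (100% within 1e-06) times a constant per rat. How the authors' counting treated reads shared between similar genes is not given in the sources used here, and similarity among the ATG8 genes was not computed.

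From these, log2(CPM + 1) was tested with limma 3.58.1 (R 4.3.3), with 1 fit of 3 groups, a mean-variance trend and Benjamini-Hochberg adjustment over 11633 genes (CPM of at least 1 in at least 4 rats; 1518 genes were not tested). A call is an adjusted p under 0.05. Fold changes on this scale understate those of low genes. Single genes were also given an exact two-sided permutation test over 70 splits. edgeR 4.0.16 and DESeq2 1.42.0 were run on the recovered reads, among 22 alternatives. Steps were tested on simulated data. The labels number the rats but give no litters or cages, so the p-values measure the spread between these rats.

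The members and lists were chosen with earlier results of these data known. Genes named were all members, and up to 3 called genes with the largest change per pathway list in each of the comparisons with ZF rats. A gene that met this rule is not reported here. Genes chosen after their values were seen are stated as such. Promoters came from RefSeq (GRCr8). No files were left out.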

Additional observations from a re-analysis of the deposited data

Results flagged for a closer look

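Values of the 43 genes in each group of 4 rats were searched for a rat whose gap to the nearest of the others was large for the range of the group (Dixon's criterion at 95%). Of 129 groups looked at, 3 met it, where chance alone gives about 6.5. Lipa, the acid lipase, was at 178.938 CPM in ZL rat 3 against 151.916 to 155.957 in the other ZL rats, and the Lipa call in ZF against ZL was lost without this rat (limma adjusted p = 0.057). Gabarapl1 was at 371.091 CPM in treated rat 4, the others of ZF-SGLT2i lying between 387.997 and 391.47. Gabarapl2 was at 139.964 CPM in the same rat against 114.447 to 115.145. Gabarapl1 and Gabarapl2 are both ATG8 genes, the first low and the second high in this rat, and the cause was not tested.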

How the results depend on the processing

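No called member, and no pathway gene called in ZF against ZL or ZF-SGLT2i against ZF, changed direction in the alternatives that tested it (22 in all). These genes were picked by their p in the same rats, so an unchanged direction was likely in advance. Among members not called, the direction changed in an alternative for 15 of 37 in ZF against ZL. It did for 11 of 42 in ZF-SGLT2i against ZF and 13 of 32 in ZF-SGLT2i against ZL. Pathway genes called in ZF-SGLT2i against ZL were not repeated. Calls of members held in 324 of 396 repeats and were lost in 72. Those of pathway genes, whose alternatives were chosen after seeing the data, held in 472 of 615. The repeats include fits without a rat of the group not compared. Of the 6 members called in ZF against ZL, 0 were called in every alternative. The same held for 0 of 1 in ZF-SGLT2i against ZF and 2 of 11 in ZF-SGLT2i against ZL. Medians moved beyond the spread in 4 of 132 repeats. Genes called in ZF-SGLT2i against ZF numbered 689 with array quality weights and 641 by DESeq2. Lysosomal members called in ZF against ZL numbered 3 in the fit of the 2 groups alone, where 13.9% of all genes were called. Autophagy members called in that comparison numbered 2 under quantile normalization (17.6% of all genes), array quality weights (24.1%) and DESeq2 (20.3%). In ZF-SGLT2i against ZF, lysosomal members numbered 1 under quantile normalization (3.39% of all genes), the 2-group fit (4.1%) and edgeR (3.16%). They numbered 2 with array quality weights (5.92%) and DESeq2 (5.51%), and autophagy members 0 in the 2-group fit. Of pathway genes, the 2-group fit ended the ZF against ZL calls of Aga, Ppt2, Gm2a, Abca2 and Sidt2 (limma adjusted p 0.057 to 0.083). It also ended those of Vps26a, Gga1, Fnip2 and Tollip (0.061 to 0.076), and the Foxo1 call in ZF-SGLT2i against ZF (0.071). The cause was not tested.

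With 1 rat left out in turn, genes called ranged from 1384 to 2453 in ZF against ZL, 176 to 569 in ZF-SGLT2i against ZF and 2238 to 3302 in ZF-SGLT2i against ZL. The first was 1384, 1454 and 1426 without ZL rat 1, ZF rat 2 and ZF rat 3. The second was 206, 184, 188 and 569 without ZF rats 2, 3, 4 and 5 and 176, 209 and 181 without ZF-SGLT2i rats 3, 4 and 6. Lysosomal members ranged from 1 to 5, 0 to 2 and 6 to 9, and autophagy members from 1 to 2, 0 to 1 and 1 to 3.

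Rats of different groups share numbers. Deviations from the group means correlated at -0.38 to 0.13 over 3 same-numbered pairs in ZF against ZL (median 0.091) and at -0.023 to 0.25 in ZF-SGLT2i against ZF (median 0.014), so the numbers were not taken to pair rats. With the number as a replicate block, 807, 223 and 1502 genes were called in the 3 comparisons in that order, with 0, 1 and 2 lysosomal and 0, 0 and 0 autophagy members.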
